A study of Mus musculus with 10 samples.

Results

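The B7 family ligands are cell-surface proteins that engage receptors on T cells, and the 7 genes described here are Cd274 (PD-L1), Pdcd1lg2 (PD-L2), Cd80 (B7-1), Cd86 (B7-2), Icosl (ICOS ligand), Cd276 (B7-H3) and Vsir (VISTA). They were selected by name and not by a rule on their values, but with earlier results of these data known. They are 7 of the 18223 genes of the deposited table. The libraries are RNA-seq of whole subcutaneous MC38 tumours, MC38 being a line from a mouse colon adenocarcinoma that grows in immunocompetent mice. There were 5 libraries of high tumour burden (HTB) and 5 of low tumour burden (LTB). The label of HTB gives 2000000 and that of LTB 500000, both with 14 days, taken here as injected tumour cells and the time of growth. All tumours carried the same line and no other agent is named, and there was no group without tumour. Mouse strain, sex and age are not given in the labels, and no label says that the libraries came from separate animals, so the p-values measure the spread between these libraries.

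PD-L1 and PD-L2 both bind PD-1, a receptor that restrains activated T cells. CD80 and CD86 deliver the costimulatory signal through CD28 and are also bound by the inhibitory receptor CTLA-4, while ICOSL costimulates through ICOS. B7-H3 and VISTA are B7 relatives described mainly as inhibitory, B7-H3 with receptors that are still debated. In tumours PD-L1 is made by tumour cells and by infiltrating leukocytes and is induced by interferon gamma, whereas PD-L2, CD80 and CD86 are best known from dendritic cells and macrophages.

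Library totals were 24884292 to 27185168 estimated reads in HTB and 23070917 to 26880191 in LTB. Levels are CPM, a count divided by its library total after scaling between libraries. The whole tumours held transcripts of several cell types. The keratin genes Krt8 and Krt18, which mark epithelium, were near 0, with 16 and 8 reads over the 5 HTB libraries and 4 and 0 over the 5 LTB libraries, although the line is labelled a colon adenocarcinoma. Of the other epithelial markers, Krt19 had 4 and 14 reads, Epcam 73 and 127, and Cdh1 466 and 1091 in HTB and LTB, and Cdh1 was lower in HTB, with an adjusted p of 0.0332 in edgeR. HTB replicate 2 stood apart by its muscle and fat transcripts: its 5 muscle markers summed to 11402 CPM, against 3.44 to 5.15 CPM in the LTB libraries. Its 4 fat markers summed to 2586 CPM, against 10.4 to 25.9 CPM in LTB. In the other HTB libraries the muscle gene Acta1 was at 0.474 to 22.15 CPM, against 4062 in replicate 2. The fat gene Fabp4 was at 20.7 to 24.2 CPM in them, against 1924. LTB replicate 1 had the highest sum of leukocyte markers, 823 CPM, against 412 to 518 CPM in the other LTB libraries.

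The ligand genes were lower in HTB than in LTB as far as they differed. In edgeR's quasi-likelihood test over 13469 genes (Benjamini-Hochberg adjusted p under 0.05), 5 of the 7 were lower in HTB (Cd274, Pdcd1lg2, Cd80, Cd86 and Cd276) and 0 were higher. Over all genes tested, 7.51% were lower and 3.91% were higher. For the same 5 ligands every HTB library lay below every LTB library, as for 7.06% of all genes tested, while Icosl and Vsir neither passed nor separated. All 7 log2 fold changes were under 0, as were 47.3% of those of all genes tested. The median log2 fold change of HTB over LTB was -1.43 over the 7 ligands and 0.02 over all genes tested. Without both HTB replicate 2 and LTB replicate 1, 6 of the 7 were lower (the same 5 and Vsir), and the log2 fold changes ran from -3.54 for Pdcd1lg2 and -1.65 for Cd274 to -0.40 for Cd276. Calls rose over the whole table in that fit, to 1663 lower genes of 13448 tested, from 1011 of 13469 with all libraries. In bulk tumour RNA, fewer cells of a type and less RNA per cell cannot be told apart, and this holds for each difference below.

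The promoters of the ligands differ in their CpG content, and 4 are printed to show the range, 3 from the genes with the largest fold changes and 1 from Cd276, whose level differed least among the 5 that passed. Each run is the 250 bases before the gene's start in RefSeq's annotation of GRCm38.p6, 5′ to 3′ on the gene's own strand, with CpG pairs in capitals. The Cd274 window is chr19:29367188-29367437 (+ strand), that of Pdcd1lg2 chr19:29410669-29410918 (+ strand), that of Cd80 chr16:38458683-38458932 (+ strand) and that of Cd276 chr9:58555034-58555283 (- strand).
Cd274: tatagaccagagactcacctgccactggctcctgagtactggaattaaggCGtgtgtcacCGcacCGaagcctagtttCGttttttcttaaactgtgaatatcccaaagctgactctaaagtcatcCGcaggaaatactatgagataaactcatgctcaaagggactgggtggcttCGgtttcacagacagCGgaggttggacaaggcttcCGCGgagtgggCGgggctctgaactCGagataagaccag
Pdcd1lg2: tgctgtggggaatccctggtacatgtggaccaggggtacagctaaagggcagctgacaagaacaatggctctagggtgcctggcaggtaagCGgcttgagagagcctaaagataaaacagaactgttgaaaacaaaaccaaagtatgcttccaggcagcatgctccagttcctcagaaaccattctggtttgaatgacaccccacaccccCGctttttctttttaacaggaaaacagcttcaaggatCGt
Cd80: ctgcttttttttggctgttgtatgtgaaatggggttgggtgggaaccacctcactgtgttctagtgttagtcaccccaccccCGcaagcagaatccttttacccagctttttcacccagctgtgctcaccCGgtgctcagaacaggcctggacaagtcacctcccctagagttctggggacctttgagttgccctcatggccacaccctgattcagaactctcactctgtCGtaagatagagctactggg
Cd276: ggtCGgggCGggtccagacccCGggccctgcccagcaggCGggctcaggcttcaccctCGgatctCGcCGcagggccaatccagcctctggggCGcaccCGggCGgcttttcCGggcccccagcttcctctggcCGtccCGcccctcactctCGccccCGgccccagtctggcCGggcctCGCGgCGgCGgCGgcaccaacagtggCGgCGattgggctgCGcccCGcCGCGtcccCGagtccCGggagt
The Pdcd1lg2 window ends at the base before the gene's first base in the deposited table. The other 3 windows lie inside the table's gene spans, so RefSeq's start and the table's start differ for them.

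The Cd274 window held 11 CpG pairs, that of Pdcd1lg2 3 and that of Cd80 3, while that of Cd276 held 29, with a G+C content of 77.6%. The windows of Icosl and Vsir held 23 and 9 CpG pairs. Of the 7 ligands, 6 matched the promoter table and Cd86 did not. Across the 32851 promoters of the table the median was 6 CpG pairs, with quartiles of 2 and 16, and the median G+C content was 52.4%. The number of CpG pairs did not order the ligands by their change, since Cd274 had more of them than Vsir. This property was chosen after the sequences and the levels had been seen, and no test was made of it. The motifs searched on both strands of these windows were the STAT element TTCNNNGAA, an IRF element made of GAAA, any 2 bases and GAAA again, the hypoxia response core ACGTG and the TATA box TATAAA. None of the 6 windows held any of these letters, and the shares of all promoters that did were 7.02%, 2.98%, 16.6% and 12.4%. Nothing about the factors follows from that, since sites can lie outside these windows.

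Cd274 and Pdcd1lg2, the genes of the PD-1 ligands, are neighbours on chromosome 19. In the table Cd274 spans 29366576 to 29388095 and Pdcd1lg2 29410919 to 29484254 (GRCm38, + strand), with 22823 bases between them. Cd274 was at 17.7, 14.2, 13.1, 17.9 and 22.8 CPM in HTB replicates 1 to 5 and at 159, 42.3, 64.9, 62.8 and 54.9 CPM in LTB replicates 1 to 5. Every HTB library lay below every LTB library, and LTB replicate 1 lay far above the other 4. With a log2 fold change of -2.16 ± 0.34 (SE, n = 5 per group), Cd274 passed with an adjusted p of 0.00436 in edgeR. Without LTB replicate 1 the log2 fold change was -1.72, the smallest in size when any 1 library was left out.

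Pdcd1lg2 was at 0.656, 0.498, 0.659, 0.725 and 0.476 CPM in HTB, from 12 to 20 reads per library, and at 4.43, 2.53, 4.87, 5.31 and 16.8 CPM in LTB. The groups did not overlap, and the high library was LTB replicate 5, not replicate 1. Its log2 fold change was -3.48 ± 0.50 (SE, n = 5 per group), with an adjusted p of 0.00288 in edgeR. Without LTB replicate 5 it was -2.82, a fold change more than 1.5 times smaller. Among all genes tested, 0.126% had a log2 fold change as low as that of Pdcd1lg2, and 0.772% one as low as that of Cd274.

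The 2 PD-1 ligands thus ranked the LTB libraries differently. Replicate 1 ranked first of the LTB libraries for Cd274 and next to last for Pdcd1lg2. Replicate 5 ranked next to last for Cd274 and first for Pdcd1lg2. In HTB, replicate 5 was the highest library for Cd274 and the lowest for Pdcd1lg2. Per kilobase of transcript, Cd274 exceeded Pdcd1lg2 by 9.49 to 22.8 times in HTB and by 1.56 to 17.1 times in LTB, ranges that overlap. The transcript length of Pdcd1lg2 is uncertain, since the longest coding transcript in GENCODE M21 has 1729 bases and others may be used in these tumours.

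Other genes overlap Cd274 at its locus. Plgrkt, a plasminogen receptor gene, overlaps the span of Cd274 in the table but shares none of its exonic bases in GENCODE. Plgrkt was at 35.5 ± 3.06 CPM in HTB and 43.0 ± 2.41 in LTB (SD, n = 5 each). Its log2 fold change was -0.28 ± 0.07 (SE), with an adjusted p of 0.0360 in edgeR. In GENCODE, 511 of the 3622 exonic bases of Cd274 (14.1%) are shared with the antisense gene AC119228.1. Whether reads were counted by strand is not given, so reads of the pair cannot be told apart. On the other side, Ric1, the next gene after Pdcd1lg2, did not pass, with a log2 fold change of 0.13 ± 0.08 and an adjusted p of 0.306, and Rln1, the next gene before Cd274, had 1 read in LTB and 0 in HTB.

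**Figure D1:**
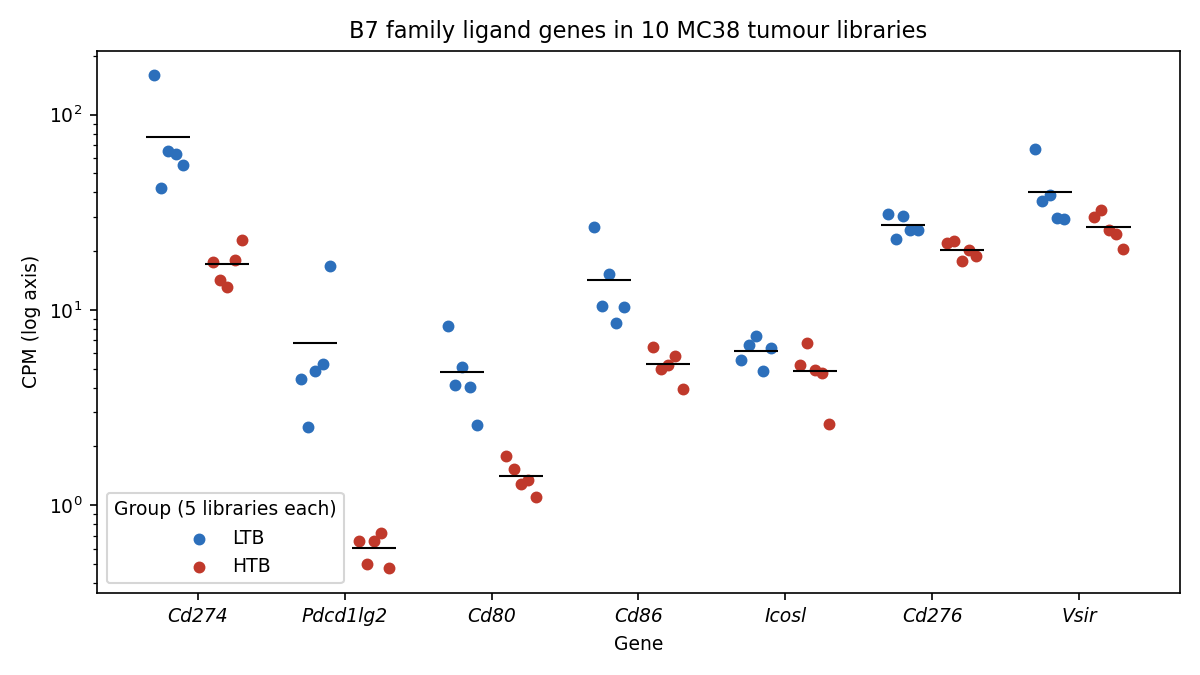
CPM of the 7 ligand genes on a log axis, with a point for each library (5 LTB in blue, 5 HTB in red) and a bar at each group's mean. The HTB points lie below the LTB points without overlap for Cd274, Pdcd1lg2, Cd80, Cd86 and Cd276, and the groups overlap for Icosl and Vsir.

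Cd80 and Cd86, the ligands of CD28 and CTLA-4, were both lower in HTB. Cd80, on chromosome 16 (38457431 to 38497780, + strand), was at 1.79, 1.54, 1.28, 1.34 and 1.10 CPM in HTB and at 8.29, 4.13, 5.09, 4.05 and 2.58 CPM in LTB. The lowest LTB library, replicate 5, lay above the highest HTB library. On the log2 scale the fold change was -1.77 ± 0.30 (SE, n = 5 per group), with an adjusted p of 0.00576 in edgeR.

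Cd86 also lies on chromosome 16 (36568956 to 36666077, - strand), apart from Cd80. It was at 6.45, 4.98, 5.24, 5.83 and 3.96 CPM in HTB and at 26.7, 10.4, 15.3, 8.59 and 10.4 CPM in LTB. The groups did not overlap, and LTB replicate 1 was again the highest. The log2 fold change was -1.43 ± 0.30 (SE, n = 5 per group), with an adjusted p of 0.0145 in edgeR, and -1.08 in the weakest of the fits that left out 1 library. Per kilobase, Cd86 exceeded Cd80 by 4.05 to 5.44 times in HTB and by 2.65 to 5.02 times in LTB, so the ratio of these ligands overlapped between the groups.

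None of the tested genes next to Cd80 passed. Adprh, an ADP-ribose hydrolase gene, had a log2 fold change of 0.00 ± 0.08, and Timmdc1, which lies 62 bases from Cd80 and encodes an assembly factor of mitochondrial complex I, one of -0.08 ± 0.09 (SE). Beside Cd86, Casr and Ildr1 did not pass the filter on low counts. Casr, the calcium-sensing receptor gene, had 100 reads over the HTB libraries, nearly all in HTB replicate 2 at 4.07 CPM, and 0 in LTB.

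Icosl, the ligand gene of the ICOS receptor, did not pass. It lies on chromosome 10 (78069368 to 78079525, + strand) and was at 5.21, 6.81, 4.91, 4.75 and 2.60 CPM in HTB and at 5.57, 6.58, 7.35, 4.85 and 6.41 CPM in LTB. The groups overlapped, with HTB replicate 5 the lowest of the 10. In the fit the log2 fold change was -0.34 ± 0.23 (SE, n = 5 per group), with an adjusted p of 0.347 in edgeR. The 95% interval, not adjusted, ran from -0.85 to 0.17. Its neighbours Dnmt3l, with a log2 fold change of -0.82 ± 0.37, and Pwp2, with -0.28 ± 0.10, did not pass either.

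Cd276 differed by little but with low spread. It lies on chromosome 9 (58524300 to 58555417, - strand) and was at 21.9, 22.6, 17.8, 20.2 and 18.9 CPM in HTB and at 31.1, 23.0, 30.1, 25.6 and 25.6 CPM in LTB. HTB replicate 2 and LTB replicate 2 almost touched, at 22.6 and 23.0 CPM. The log2 fold change was -0.42 ± 0.10 (SE, n = 5 per group), with an adjusted p of 0.0279 in edgeR. This call was lost in 5 of the 10 fits that left out 1 library (HTB replicate 3, 4 or 5, or LTB replicate 1 or 3), with adjusted p from 0.0525 to 0.0736. In GENCODE, 416 of its 3658 exonic bases (11.4%) are shared with Gm10657 on the opposite strand, whose reads cannot be told apart. Its neighbours Insyn1 and Nptn had log2 fold changes of 0.02 ± 0.18 and -0.07 ± 0.09, and neither passed.

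Vsir, the VISTA gene, did not pass. It lies on chromosome 10 (60346851 to 60430294, + strand) and was at 30.1, 32.5, 25.6, 24.6 and 20.5 CPM in HTB and at 66.4, 36.3, 38.8, 29.7 and 29.3 CPM in LTB. LTB replicate 1 stood apart, while replicates 4 and 5 lay within the HTB range. The log2 fold change was -0.59 ± 0.22 (SE, n = 5 per group), with an adjusted p of 0.112 in edgeR and a 95% interval, not adjusted, of -1.09 to -0.09. Without HTB replicate 2 and LTB replicate 1 together, the log2 fold change was smaller, -0.41, and passed with an adjusted p of 0.0448. Vsir lies within the span of Cdh23, a cadherin gene that did not pass. Of its neighbours, Psap, the prosaposin gene, was lower in HTB, with a log2 fold change of -0.68 ± 0.15 and an adjusted p of 0.0204, and Slc29a3 did not pass, at -0.07 ± 0.09.

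**Figure D2:**
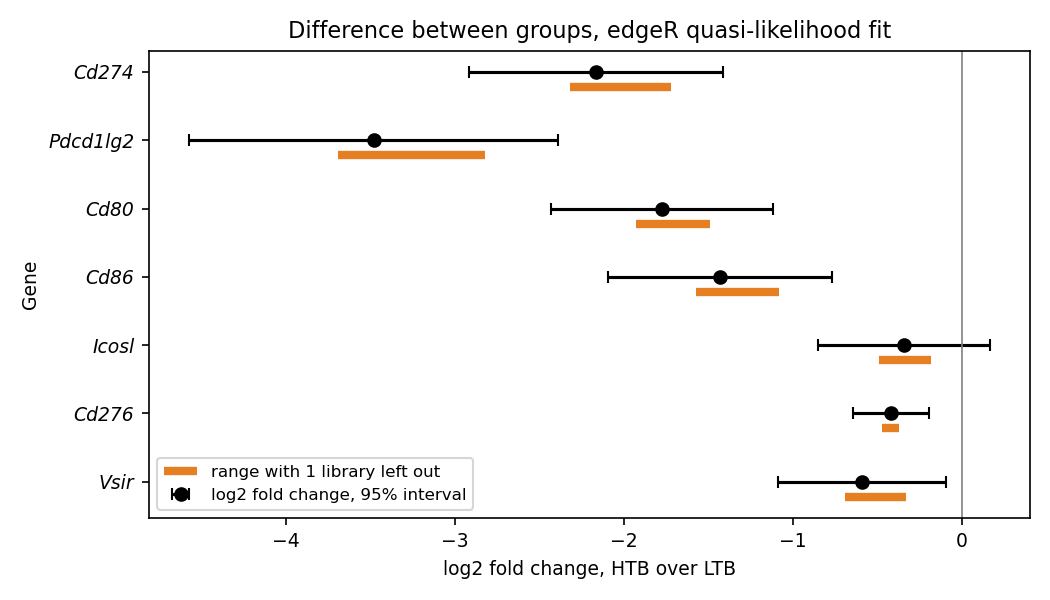
Fitted log2 fold change of HTB over LTB for each ligand gene (black point) with its 95% interval, and below it in orange the range over the 10 fits that each left out 1 library. All the point estimates lie below 0, from -3.48 for Pdcd1lg2 to -0.34 for Icosl, and the interval of Icosl includes 0.

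In the authors' deposited table, the log2 fold changes were -2.16 for Cd274, -3.48 for Pdcd1lg2, -1.77 for Cd80, -1.43 for Cd86, -0.34 for Icosl, -0.41 for Cd276 and -0.59 for Vsir. The q-values of the authors' deposited table were under 0.05 for 5 of the 7, the same 5, beside 7.66% of the genes with a q-value that it calls lower. The largest q-value of those 5 in the authors' deposited table was 0.00448, for Cd276, and that of Vsir was 0.0691.

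The order of the ligand genes differed between the groups. On the scale of CPM per kilobase of the longest coding transcript, Cd276, Vsir and Cd274 were the most abundant in HTB, at 5.63 ± 0.560, 5.50 ± 0.978 and 4.73 ± 1.05 (SD, n = 5), levels whose ranges overlapped. Cd86 followed at 2.08 ± 0.369 and Icosl at 1.73 ± 0.534, also with overlapping ranges. Cd80 and Pdcd1lg2 came last, at 0.444 ± 0.0826 and 0.349 ± 0.0632, and overlapped as well. The HTB libraries therefore formed 3 tiers of level with no overlap between Cd274 and Cd86 or between Icosl and Cd80.

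In LTB, Cd274 came first at 21.2 ± 12.9 CPM per kilobase (SD, n = 5), ahead of Vsir at 8.27 ± 3.15, Cd276 at 7.52 ± 0.946 and Cd86 at 5.62 ± 2.90. Pdcd1lg2 at 3.93 ± 3.30, Icosl at 2.19 ± 0.343 and Cd80 at 1.52 ± 0.673 followed, and the ranges of all neighbours in this order overlapped. Within each LTB library, however, Cd274 exceeded Cd276, by 1.83 to 5.08 times per kilobase, whereas in HTB the ratio was 0.622 to 1.20. The ratios of the 2 groups did not overlap, and the difference between the ratios was not tested.

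As a share of the summed CPM per kilobase of all 7 genes, Cd274 made up 23.3 ± 6.08% in HTB and 40.1 ± 7.89% in LTB (SD, n = 5). Cd276 made up 27.5 ± 0.684% and 16.0 ± 3.32%, and Vsir 26.8 ± 3.19% and 16.7 ± 3.03%. The share of Cd86 was close in both groups, 10.2 ± 1.48% and 10.9 ± 2.01%. Pdcd1lg2 made up 1.31 to 2.07% in HTB and 3.06 to 21.5% in LTB, with the highest share in LTB replicate 5. These shares sum to a whole, so a lower share of one gene raises those of the others.

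**Figure D3:**
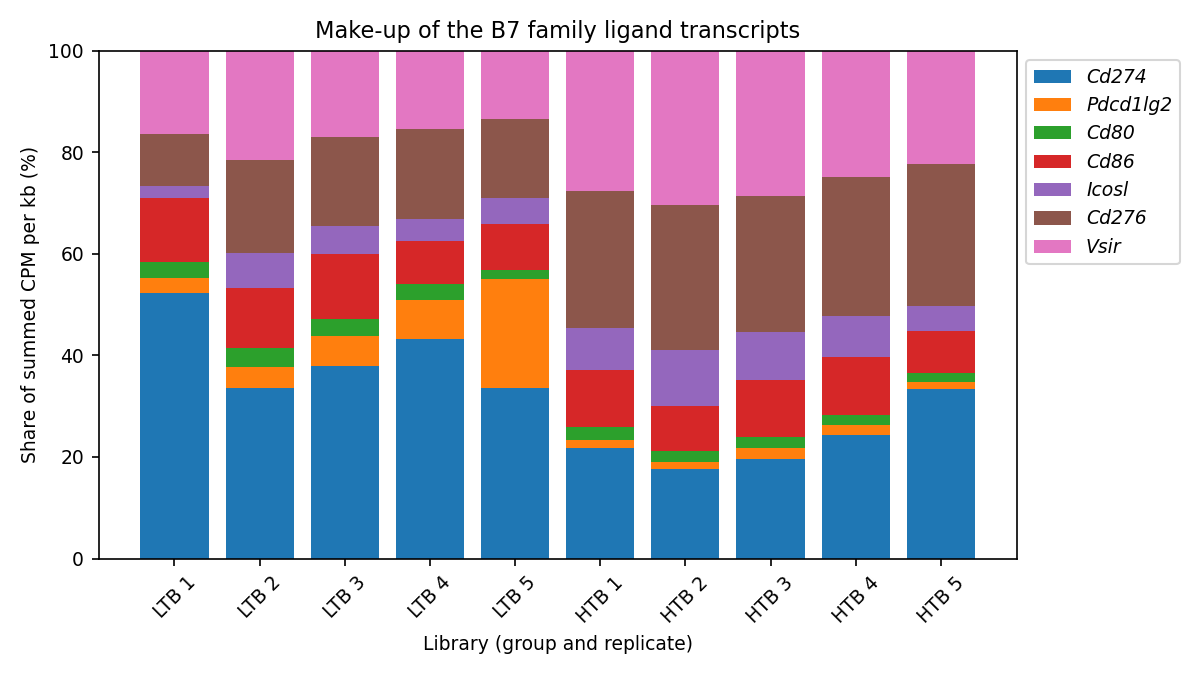
Share of each ligand gene in the summed CPM per kilobase of the 7 genes, in percent, for the 5 LTB and 5 HTB libraries. Cd274 takes 33.6 to 52.3% in LTB and 17.7 to 33.3% in HTB, and the wide band of Pdcd1lg2 in LTB replicate 5 is 21.5%.

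Most receptor genes of these ligands were also lower in HTB. Of the 6 receptor genes tested, 4 were lower (Cd28, Ctla4, Icos and Selplg), 1 was higher (Rgmb) and 1 did not pass (Pdcd1). The shares over all genes tested were 7.51% lower and 3.91% higher. The median log2 fold change of the 6 was -1.68. Icos was at 0.915 to 3.22 CPM in HTB, with a median of 1.92, and at 5.72 to 22.3 CPM in LTB, with a median of 8.09. The fitted log2 fold change was -2.38 ± 0.46 (SE), with an adjusted p of 0.0109 in edgeR. Icos thus passed in the same libraries in which its ligand gene Icosl did not, and the difference between their changes was not tested.

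Cd28, the costimulatory receptor gene of CD80 and CD86, was at 1.10 to 3.30 CPM in HTB and at 4.85 to 18.0 in LTB, without overlap. On the log2 scale it differed by -2.00 ± 0.42 (SE), with an adjusted p of 0.0155 in edgeR. Ctla4, the inhibitory receptor gene of the same ligands, had a log2 fold change of -1.96 ± 0.53 and an adjusted p of 0.0390. That call was lost in 7 of the 10 fits that left out 1 library (HTB replicate 1, 3 or 4, or LTB replicate 1, 3, 4 or 5), with adjusted p up to 0.0887.

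Pdcd1, which encodes PD-1, was at 3.83, 2.78, 1.94, 0.797 and 1.61 CPM in HTB and at 10.1, 6.50, 6.62, 2.63 and 1.65 CPM in LTB. LTB replicates 4 and 5 lay within the HTB range. The log2 fold change was -1.33 ± 0.52 (SE), with an adjusted p of 0.121 in edgeR. The LTB library with the least Pdcd1, replicate 5, was the one with the most Pdcd1lg2.

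Selplg encodes PSGL-1, a leukocyte adhesion protein that can bind VISTA, and was at 17.0 ± 2.86 CPM in HTB and 44.9 ± 12.5 in LTB (SD, n = 5 each). The fitted log2 fold change was -1.40 ± 0.18 (SE), with an adjusted p of 0.00189 in edgeR. Rgmb encodes a bone morphogenetic protein coreceptor that binds PD-L2, and it went the other way. It was at 138, 109, 134, 141 and 209 CPM in HTB and at 59.2, 88.4, 74.5, 94.4 and 89.5 CPM in LTB, so that every HTB library lay above every LTB library, as for 4.68% of all genes tested. The log2 fold change was 0.85 ± 0.18 (SE), with an adjusted p of 0.0141. Igsf11, another partner of VISTA, had 2 reads in LTB and 0 in HTB and was not tested.

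Further relatives of the family were scarce. Of 9 genes that include Vtcn1 (B7-H4), Ildr2 and the butyrophilins, only Btnl9 and Ildr2 passed the filter on low counts. Btnl9 was at 0.874 to 4.23 CPM in HTB, the highest value in replicate 2, and at 0.114 to 0.739 CPM in LTB. The fitted log2 fold change was 1.73 ± 0.59 (SE), with an adjusted p of 0.0817 in edgeR, and it was 0.98 without HTB replicate 2, the lowest of the fits that left out 1 library. Ildr2, with 0.32 ± 0.53 and an adjusted p of 0.723, did not pass. Vtcn1 had 7 reads in HTB, all in replicate 2, and 0 in LTB.

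Most genes listed for the route from interferon gamma to PD-L1 transcription were lower in HTB. Of 14 genes tested, 10 were lower, beside 7.51% of all genes tested, and 0 higher, with a median log2 fold change of -0.47. Among the 10 were Ifng, Ifngr1, Stat2, Stat3, Irf1, Irf2, Irf8, Irf9 and Socs1. The list holds the inhibitor gene Socs1 beside activators, so the count does not measure signalling. Irf1, the transcription factor that acts directly on the PD-L1 promoter, was at 106 to 127 CPM in HTB and at 245 to 418 in LTB. Irf1 had a log2 fold change of -1.40 ± 0.14 (SE), with an adjusted p of 0.000593 in edgeR. Stat2, a transcription factor of type I interferon signalling, had one of -0.86 ± 0.13, with an adjusted p of 0.00363.

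Of the genes at the start of that route, several did not pass. Jak1 was at 220 ± 6.31 CPM in HTB and 222 ± 5.20 in LTB (SD, n = 5 each), and neither Jak1 nor Jak2, Ifngr2 or the phosphatase gene Ptpn2 passed. LTB replicate 1, the library with the most Cd274, also had the highest level of Ifng, 14.0 CPM against 2.40 to 4.45 CPM in the other LTB libraries. That library also had the highest sum of leukocyte markers. In HTB, replicate 5 had the most Cd274, while Ifng was highest in replicate 1, at 1.17 CPM against 0.659 CPM in replicate 5. The part of interferon signalling in the level of Cd274 was not tested.

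**Figure D4:**
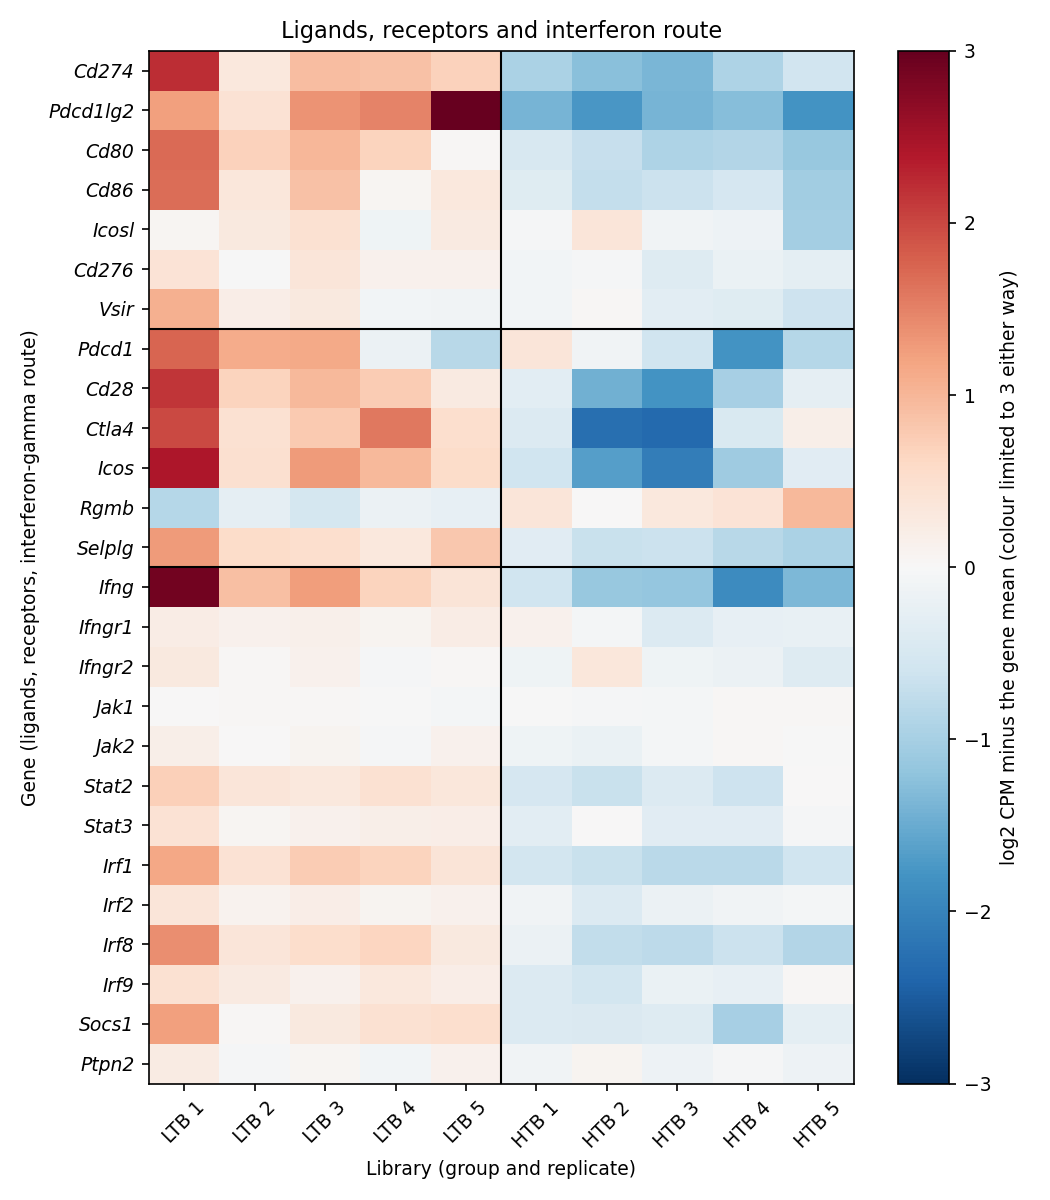
log2 CPM of each gene minus its mean over the 10 libraries, with ligands above, receptors in the middle and the interferon gamma route below, and LTB libraries left of the vertical line. Cd274 and Ifng are darkest red in LTB replicate 1, Pdcd1lg2 in LTB replicate 5, and Rgmb is below its mean in every LTB library and above it in every HTB library.

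Among 11 further transcription factors tied to the ligand genes, 4 were lower in HTB (Relb, Hif1a, Nlrc5 and Ciita) and 0 higher. The share lower over all genes tested was 7.51%. The median log2 fold change of the 11 was -0.36. Nlrc5 and Ciita, the transactivators of the MHC class I and class II genes, had log2 fold changes of -1.06 ± 0.10 and -2.90 ± 0.43 (SE), with adjusted p of 0.000593 and 0.00346 in edgeR. Relb, a subunit of NF-kB, had one of -0.42 ± 0.08, with an adjusted p of 0.00917. Myc and Jun were not called, with log2 fold changes of 0.07 ± 0.07 and -0.04 ± 0.11.

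Among genes that act on the ligand proteins after translation, a single one passed. Of 16 tested, 1 was lower (Marchf1) and 0 higher, with a median log2 fold change of 0.03. Over all genes tested, 7.51% were lower, so 1 of 16 is near the share of the whole table. Marchf1 encodes a ubiquitin ligase that removes CD86 and MHC class II from the surface, and was at 5.26 ± 1.32 CPM in HTB and 11.1 ± 4.40 in LTB (SD, n = 5 each). Its log2 fold change was -1.08 ± 0.28 (SE), with an adjusted p of 0.0332 in edgeR, and the call was lost in 5 of the 10 fits that left out 1 library (HTB replicate 1, 4 or 5, or LTB replicate 1 or 3), with adjusted p from 0.0608 to 0.0748. B3gnt3, a glycosyltransferase gene for PD-L1, and Btrc, a ubiquitin ligase gene for it, did not pass, at -0.27 ± 0.09 and 0.22 ± 0.08. B3gnt3 passed without LTB replicate 1, at -0.33 with an adjusted p of 0.0217, and without both that library and HTB replicate 2, with 0.0144. Cmtm6, whose protein keeps PD-L1 at the cell surface, was at 47.6 ± 5.21 CPM in HTB and 48.8 ± 6.37 in LTB.

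Downstream of the receptors, 6 of 13 signalling genes were lower in HTB, beside 7.51% of all genes tested, and 0 were higher. Among the 6 were Lck, Fyn, Zap70, Pik3cd and Lat, and the median log2 fold change of the 13 was -0.85. Lat, the adaptor of the T cell receptor complex, had a log2 fold change of -2.19 ± 0.41 (SE), with an adjusted p of 0.00935 in edgeR. The kinase gene Lck had -1.68 ± 0.34, with an adjusted p of 0.0124. The count was 10 without HTB replicate 2 and 3 without HTB replicate 4. Ptpn6 and Ptpn11, which encode the phosphatases recruited by PD-1, did not pass, at -0.62 ± 0.19 and 0.08 ± 0.06.

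Many leukocyte markers were lower in HTB as well. All 5 pan-leukocyte genes (Ptprc, Cd53, Coro1a, Laptm5 and Cytip) were lower in HTB, and their summed level was 196 to 301 CPM in HTB and at 412 to 823 in LTB. Of the markers tested, 6 of 8 for T cells, 3 of 10 for macrophages, 3 of 8 for dendritic cells, 3 of 4 for mast cells and 2 of 4 for natural killer cells were lower, while 0 of 3 for B cells and 0 of 4 for neutrophils were. The share lower over all genes tested was 7.51%. The 3 B cell and 4 neutrophil markers all had log2 fold changes under 0, with medians of -0.96 and -0.55, so they do not stand apart in direction. The summed T cell markers were at 12.2 to 37.9 CPM in HTB and at 36.0 to 185 in LTB, and the summed macrophage markers at 680 to 1167 and 1110 to 2291 CPM. The B cell gene Ms4a1 and the neutrophil gene Ly6g were near 0 in both groups, with at most 11 reads in a group.

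To set the ligands beside the leukocyte transcripts, each was divided by the sum of the 5 pan-leukocyte genes in the same library, and the log2 ratios of the 2 groups were compared by an exact two-sided permutation test, whose smallest p is 0.00794. Cd274 stood at 5.03 to 11.6% of the leukocyte sum in HTB and at 9.18 to 19.3% in LTB. The groups overlapped through HTB replicate 5, the library with the fewest leukocyte transcripts, where the ratio was 11.6%. The difference of the mean log2 ratios was -0.98, with an exact p of 0.0159 and, adjusted over the 7 comparisons of this kind, 0.0222. Pdcd1lg2 was at 0.212 to 0.284% in HTB and 0.538 to 3.92% in LTB, a difference of -2.15 with an exact p of 0.00794, and 0.0185 after adjustment. Cd80 was at 0.491 to 0.654% and 0.602 to 1.01%, a difference of -0.64 with an exact p of 0.0159, and 0.0222 after adjustment.

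For the other 4 ligands the ratio to the leukocyte sum was not lower in HTB by this test. Cd86 was at 2.01 to 2.28% of it in HTB and 2.09 to 3.24% in LTB, a difference of -0.27 that missed the threshold with an exact p of 0.0556. Cd276 was at 6.81 to 9.69% in HTB and 3.78 to 6.22% in LTB, higher by 0.63 on the log2 scale, and Vsir was at 9.61 to 13.9% and 6.82 to 8.07%, higher by 0.51. The groups overlapped for neither, and both had an exact p of 0.00794 and an adjusted p of 0.0185. Icosl was higher by 0.65, with overlapping groups, an exact p of 0.0317 and an adjusted p of 0.0370. That call was lost in 9 of the 10 comparisons that left out 1 library, all but the one without HTB replicate 5. The leukocyte sum itself did not overlap between the groups, at 196 to 301 CPM in HTB and 412 to 823 in LTB. A gene at equal CPM in both groups would therefore have a higher ratio in HTB. By CPM, the log2 fold changes were -0.42 for Cd276, -0.59 for Vsir and -0.34 for Icosl.

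The outcome depended on which markers formed the denominator. Against the macrophage sum the differences were -1.32 for Cd274, -2.49 for Pdcd1lg2 and -0.98 for Cd80, each with an adjusted p of 0.0556 by the exact test. Against the T cell sum they were -0.29 for Cd274, -1.46 for Pdcd1lg2 and 0.05 for Cd80, and Cd86 was at 0.42, with adjusted p of 0.602, 0.208, 0.865 and 0.367. Against Ptprc alone, Pdcd1lg2 and Cd80 still passed, Cd274 did not, at -0.70 with an adjusted p of 0.0741, and Cd86 was at 0.01. The ligands are made by several cell types, and the part of cell composition in their levels was not tested.

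**Figure D5:**
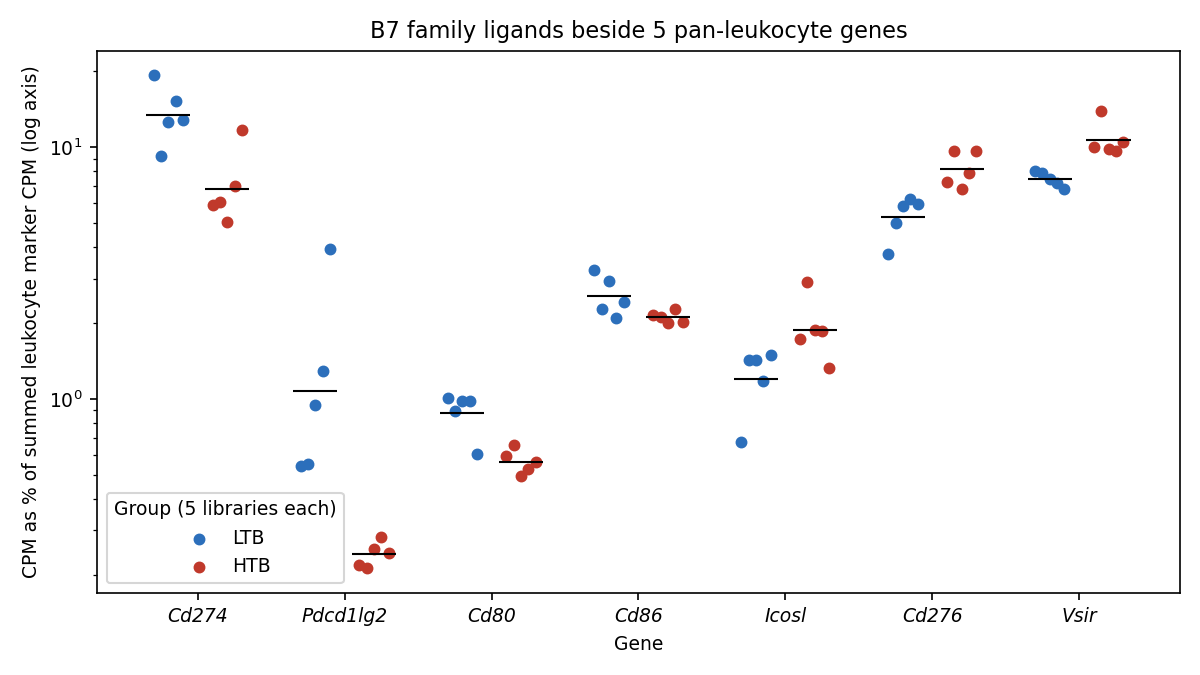
CPM of each ligand gene as a percentage of the summed CPM of 5 pan-leukocyte genes in the same library, on a log axis, with a point per library (5 LTB in blue, 5 HTB in red) and a bar at each geometric mean. Without overlap, HTB lies lower for Pdcd1lg2 and higher for Cd276 and Vsir. With overlapping groups, the HTB mean is lower for Cd274, Cd80 and Cd86 and higher for Icosl. The picture changes with other denominators. The leukocyte sum itself was lower in HTB, which raises the ratios there.

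The genes whose levels ran most like each ligand over the 10 libraries were found by the root-mean-square distance between log2 CPM values centred on each gene's mean, among 11588 genes. A distance of 0 means identical shape and size of change, and since the groups differ, genes with a like group difference score well. Among the ligands themselves, Cd276 and Vsir were closest, at 0.27, followed by Cd80 and Cd86 at 0.29, and Pdcd1lg2 lay at 0.98 to 1.51 from each of the others. A gene that did not vary would lie at a ligand's own root-mean-square deviation from its mean. That was 0.25 for Cd276, 0.44 for Vsir, 0.79 for Cd86, 0.92 for Cd80 and 1.65 for Pdcd1lg2. Cd276 was thus no closer to Vsir than to a gene without change, and small distances partly reflect small changes. Cd274 was closer to Cd80 (0.44) and Cd86 (0.52) than to its neighbour and fellow PD-1 ligand Pdcd1lg2 (0.98).

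The nearest genes to Cd274 were AA467197 at 0.17, the lysosomal transporter gene Slc15a3 at 0.19 and the metalloprotease gene Adam8 at 0.22. AA467197 was at 18.7 to 28.6 CPM in HTB and at 54.5 to 180 in LTB, with the highest value in LTB replicate 1. Those nearest to Pdcd1lg2 were farther off: Clec7a, which encodes the fungal pattern receptor dectin-1, at 0.51, the chemokine gene Ccl22 at 0.60 and Itgax, which encodes the integrin CD11c, at 0.62. Each of these had its highest level in LTB replicate 5, at 128, 17.9 and 51.2 CPM, as Pdcd1lg2 did.

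Cd80 was nearest to the lymphocyte adaptor gene Lax1 (0.16), Arl5c (0.19) and the interleukin 12 receptor gene Il12rb2 (0.21). Cd86 was near to Ccdc88b (0.13) and the sorting nexin gene Snx20 (0.16). Cd276 was nearest to the glycosyltransferase gene Mgat4a (0.07), the endoplasmic reticulum oxidase gene Ero1lb (0.08) and Hif1a (0.09), the oxygen-regulated transcription factor. Vsir was nearest to the actin-binding gene Tmsb4x (0.10), Was (0.13) and the G protein subunit gene Gng2 (0.13), and Icosl to the kinase gene Prkcb (0.11), Nostrin (0.15) and the lipoprotein receptor gene Lrp8 (0.15). These distances describe the 10 libraries and carry no test.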

How the data were processed

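RNA was measured by RNA-seq of whole MC38 tumours (5 HTB and 5 LTB libraries). Per the labels' protocols, an RNeasy kit served for extraction and a SMARTer kit for the libraries. The build was GRCm38 (mm10), per the submitters' processing notes. No aligner, read counter or strandedness is given in the sources used here. The deposited table holds unscaled estimated counts for each gene and library, of which 86.4% are whole within 1e-09. The others were rounded to whole numbers here. It also holds the authors' log2 fold changes and their p-values and q-values, named as DESeq2 output in its headers. Its column means are authors' values that were not used, and 1 line without a gene was left out.

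The genes were fitted with edgeR 4.0.16 (R 4.3.3): filterByExpr, TMM factors of 0.975 to 1.03, group as the only term, all 10 libraries, and the quasi-likelihood test with Benjamini-Hochberg adjustment over 13469 genes at a threshold of 0.05. CPM used TMM-scaled totals. CPM per kilobase used the longest GENCODE M21 coding transcript. Ratios were compared with exact permutation tests in scipy 1.17.1 (Python 3.11.15), and the fit was tested on simulated data. Of the symbols, Marchf1 was matched by gene ID, since the table lists it under a date. No fold is given here against a group under 3 reads.

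The genes named are the 7 ligands, all receptors, the 3 genes of smallest p in each other pathway list, the 3 genes nearest to each ligand (mean log2 CPM of at least 1, a prior count of 2, no predicted genes) and the neighbours on each side. Some genes selected this way are not reported here. Cmtm6, Jak1, Jak2, Ifngr2, Ptpn2, Ifng, Hif1a, Myc, Jun, Ptpn6 and Ptpn11 and the genes that complete a count were named after their values were seen, as were Cdh23 and the markers of cell types. The ligands, the gene lists and the tests were chosen with earlier results of these data known. Alternatives were DESeq2 size factors, upper-quartile factors, the DESeq2 1.42.0 Wald test, limma voom (limma 3.58.1), no filter or one at 1 CPM in 5 libraries, the replicate number as a block, dropping each library, dropping both HTB replicate 2 and LTB replicate 1, and for the ratios other denominators and a pseudocount. Promoters came from RefSeq (GRCm38.p6).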

Additional observations from a re-analysis of the deposited data

Results flagged for a closer look

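In 3 of the 14 groups of 5 libraries tested (7 ligand genes in HTB and in LTB), 1 library lay far from the others by Dixon's criterion, whose 95% critical value is 0.71 for 5 samples. For normally distributed values, chance alone marks about 1 in 20 such groups. The criterion was applied to CPM and not to log2 CPM, on which a high value stands out less. The groups are not independent either, since the same libraries serve for all genes. Cd274 was at 158.7 CPM in LTB replicate 1, with a gap to the next library of 0.806 of the group's range. Pdcd1lg2 was at 16.82 CPM in LTB replicate 5, also 0.806. Vsir was at 66.42 CPM in LTB replicate 1, with 0.745. All 3 are high values in LTB, and Cd274 and Pdcd1lg2 kept their calls without the library concerned.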

How the results depend on the processing

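The calls for Cd274, Pdcd1lg2, Cd80 and Cd86 held in every alternative fit run, and Icosl passed in none. Leaving out 1 library gave log2 fold changes of -2.32 to -1.72 for Cd274, -3.69 to -2.82 for Pdcd1lg2, -1.93 to -1.49 for Cd80, -1.57 to -1.08 for Cd86, -0.49 to -0.18 for Icosl, -0.47 to -0.37 for Cd276 and -0.69 to -0.33 for Vsir. The count of lower ligands was 4 to 5 then, and 4 to 6 under the other alternatives. With the replicate block, Cd276 was at -0.41 (adjusted p = 0.0801), Pdcd1 passed at -1.25 (0.0444), and lower genes over the whole table numbered 750. Whether the replicate numbers pair the libraries is not known. Same-numbered libraries deviated with correlations of -0.062 to 0.097, and 1 of 5 HTB libraries correlated best with its own number. Such correlations cannot exclude a pairing, since single libraries with large deviations weigh on them. Without both HTB replicate 2 and LTB replicate 1, Vsir passed at -0.41, the handling genes counted 2 lower, and Ildr2 reversed to -0.15. Under the DESeq2 Wald test the handling genes also counted 2 lower, and 2 pathway genes were higher, 1 of them the butyrophilin relative Btnl9. Leaving out 1 library gave 0 to 1 lower handling genes, 3 to 10 signalling genes and 17 to 30 lower pathway genes in all. The whole table moved too, from 1011 lower genes to between 559 (HTB replicate 3 left out) and 1716 (HTB replicate 2 left out).

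For the ratios to leukocyte markers, the count of lower ligands was 0 with macrophage markers, 0 with T cell markers and 0 with differences paired by replicate number (the paired test, whose smallest p is 0.0625, cannot pass). The paired differences were -0.98 for Cd274, -2.15 for Pdcd1lg2, -0.64 for Cd80, 0.65 for Icosl, 0.63 for Cd276 and 0.51 for Vsir. With macrophage markers they were -1.32, -2.49, -0.98, 0.31, 0.29 and 0.17 in that order, none past the threshold. With T cell markers they were -0.29, -1.46, 0.05, 1.35, 1.32 and 1.20, Cd80 reversed, and Cd86 reversed to 0.42. With Ptprc alone, Cd274 was at -0.70 and Cd86 reversed to 0.01. Leaving out 1 library gave 0.45 to 0.78 for Icosl and -0.35 to -0.19 for Cd86, which passed at -0.35 without LTB replicate 4. The causes were not tested. The 12 to 20 reads of Pdcd1lg2 per HTB library limit the precision of its fold change.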
